A study of Homo sapiens with 18 samples.

Results

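Cyclic AMP phosphodiesterases were examined as a set of 10 genes, PDE3A, PDE3B, PDE4A, PDE4B, PDE4C, PDE4D, PDE7A, PDE7B, PDE8A and PDE10A, found by gene symbol in 2 tables of differential expression. Both tables listed 9 of the 10. PDE7B was in neither, and its level is not analysed here. The tables held 14888 genes (H33 against HepG2) and 14896 genes (H12 against HepG2), of which 14765 were in both. The study sequenced poly-A RNA from 18 libraries of human hepatoblastoma cells, 6 from each of 3 lines grown in RPMI1640 medium with fetal bovine serum. HepG2 carried the genotype label WT and served as the control. H33 and H12 are HepG2 clones with the genotype label DNAJB1-PRKACA, a fusion of the heat shock co-chaperone gene DNAJB1 to the gene for the catalytic subunit of protein kinase A (PKA). It is the fusion that characterises fibrolamellar carcinoma, a liver cancer. Each fusion group is 1 clone, so the fusion cannot be told apart from other differences between that clone and HepG2.

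Phosphodiesterases hydrolyse cyclic nucleotides and so end the signal that adenylyl cyclases start. PKA is the main receptor of cAMP, and in many cells it phosphorylates and activates PDE3 and long PDE4 enzymes, while CREB, a transcription factor downstream of PKA, raises transcripts of some short PDE4 forms. The families differ in their substrates: PDE4, PDE7 and PDE8 act on cAMP, whereas PDE3 and PDE10 act on cAMP and cGMP. In liver cells PDE3B is known for carrying part of the insulin signal that lowers cAMP.

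A fold change is given as the log2 of a clone's level divided by that of HepG2. Its standard error (SE) was derived from the fold change and its likelihood ratio. A level is the group mean in CPM (read counts scaled to library size) that the mean level and the fold change of a table imply for groups of equal size. Values per library were not used, so the spread between libraries cannot be shown and depth is unknown. The labels call the 6 libraries of a line biological replicates without naming separate cultures, so a p-value measures the spread between those libraries only. A gene was called at an adjusted p under 0.05 in the likelihood ratio test. As a check of the genotype, PRKACA stood at 2.15 (SE 0.03) in H33 and 2.07 (SE 0.14) in H12 in the authors' deposited tables, on the log2 scale. DNAJB1 stood at -0.20 (SE 0.04, called lower) in H33 and -0.25 (SE 0.13, not called) in H12 in the authors' deposited tables. Reads of the fusion and of the intact genes are not separated there. All 10 hepatocyte markers checked, albumin among them, were called lower in both clones, and their summed level went from 55299 CPM in HepG2 to 109 CPM in H33 and 893 CPM in H12. The part of this difference in the results below was not tested. Of markers of other cell types, the listed genes were 4 of 6 for fibroblasts, 1 of 5 for endothelium, 4 of 6 for leukocytes and 4 of 8 for neuroendocrine cells. Their summed levels in HepG2, H33 and H12 were 10.3, 1445 and 1193 CPM for fibroblast genes, in the clones almost all from the collagen gene COL1A2. Those of endothelial genes were 1.20, 0.385 and 0.312 CPM, those of leukocyte genes 3198, 183 and 188 CPM, and those of neuroendocrine genes 99.6, 2532 and 2376 CPM. Single genes carried these sums too: LYZ supplied 3130 CPM of the leukocyte sum in HepG2, whereas CD68, which was called higher, supplied 178 CPM in H33 and 136 CPM in H12. SCG2 supplied 2392 and 2259 CPM of the neuroendocrine sum in the clones. Of the 4 fibroblast genes, 3 were called higher and 1 lower in H33, and 2 higher and 1 lower in H12. The lower one was PDGFRB in both clones, which supplied 5.92 CPM of the fibroblast sum in HepG2. The pan-leukocyte marker PTPRC was in neither table. In bulk RNA, fewer cells of a type and less RNA per cell cannot be told apart.

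The 9 measured genes split into a group that rose and a group that fell. In H33, PDE4B, PDE4D, PDE8A and PDE10A rose, and PDE3A, PDE3B, PDE4A, PDE4C and PDE7A fell. In H12 the calls had the same directions. All 9 were called in H33, where 89.6% of all listed genes were called, and all 9 in H12, where 86.0% were. The 4 rises stood beside 44.2% of all genes called higher in H33 and 41.8% in H12, and the 5 falls beside 45.3% and 44.3% called lower. Both comparisons share the HepG2 libraries, so they are not independent. Being called is therefore near the background for these lines, and the size of the changes is what the values below describe. Changes of at least 1 log2 unit were called for 7 of the 9 in each clone, against 44.5% of all genes in H33 and 44.1% in H12. The median absolute log2 fold change of the 9 was 3.68 in H33 and 3.42 in H12, beside 0.84 and 0.83 over all listed genes. The 9 include PDE4B and PDE3A, each almost without reads in 1 group, so their ratios depend on the prior count of the fit. The genes were also chosen with earlier results of these data known, so these medians only describe the 9 genes. The signed medians of the 9 were -0.22 and -0.62, beside -0.02 and -0.03 over all genes.

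**Figure D1:**
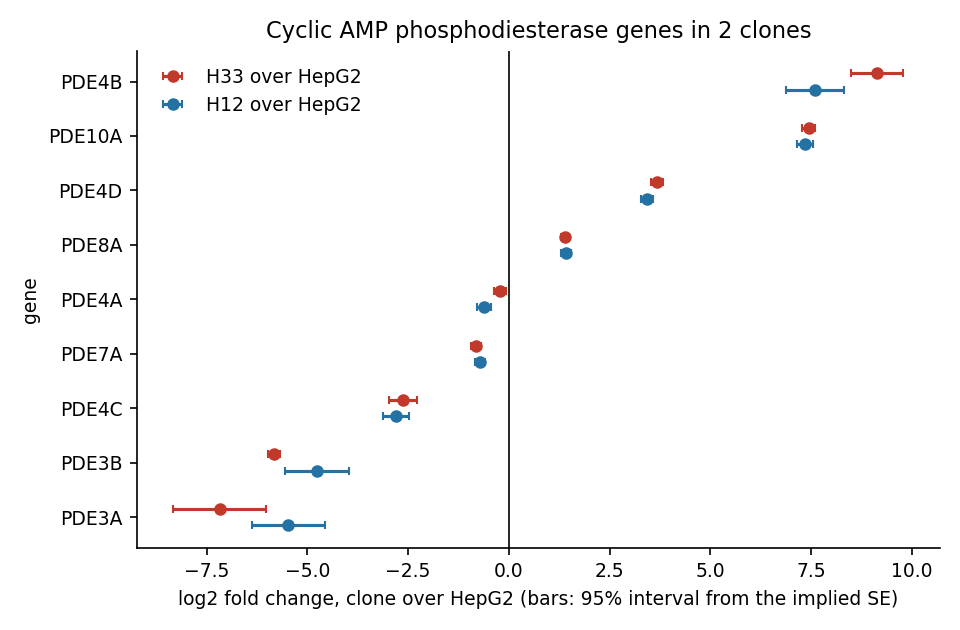
Log2 fold change of the 9 measured cyclic AMP phosphodiesterase genes in H33 (red) and H12 (blue) over HepG2. Points are the deposited values and bars are 95% intervals from the derived SE, which is not a sampling error for PDE4B and PDE3A, whose level is near the lowest fitted values in 1 group. PDE4B and PDE10A lie above 7 and PDE3B lies below -4 in both clones, while PDE4A and PDE7A lie between -1 and 0.

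The PDE3 genes encode cGMP-inhibited enzymes, and both were far lower in the clones. PDE3B (ENSG00000152270, GRCh38 chromosome 11 from 14643723 to 14872044) had an implied level of 58.8 CPM in HepG2 by the H33 table and 59.9 CPM by the H12 table. It stood at 1.03 CPM in H33 and 2.21 CPM in H12, which are 1.75% and 3.69% of the HepG2 level. Both clones were thus far below HepG2, and the difference between them did not pass the test given further on. The log2 fold change of PDE3B in the authors' deposited tables was -5.84 (SE 0.08, adjusted p listed as 0) for H33 and -4.76 (SE 0.41, adjusted p = 3.72e-31) for H12. Its SE in H12 was large for its level: among 1434 genes within 0.5 log2 CPM of it that changed by at least 0.5 log2 units, the median SE was 0.07 and 8.02% had a larger one. PDE3A (ENSG00000172572, chromosome 12 from 20369245 to 20684381), known best from heart, smooth muscle and platelets, was scarce in HepG2 already, at 0.843 CPM and 0.824 CPM by the 2 tables. In H33 it lay at 0.00586 CPM, near the lowest level fitted for any gene in that clone (0.00493 CPM), so no fold is given. In H12 it lay at 0.0186 CPM, and its log2 fold change was -5.47 (SE 0.46, adjusted p = 3.95e-32) in the authors' deposited table. That level is also near the lowest fitted values, so the ratio depends on the prior count, and it was -3.04 when levels below 0.1 CPM were raised to 0.1 CPM.

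The remainder of PDE3 transcripts in H12 can be set beside that of other genes lost in the clones. Among 160 genes that were under -9 in H33, with at least 10 CPM in HepG2, the median level in H12 was 1.64% of that in HepG2, and it exceeded the H33 level by a median of 1.54 percentage points. Their H12 fold changes lay close together, with an SD of 0.20 log2 units around a median of -5.93. Several genes named further on had an H12 level in the same range, namely 1.57% of HepG2 for G6PC1, 1.35% for PCK1, 1.79% for ADCY1 and 1.88% for PDE11A. PDE3B in H12 exceeded its H33 level by 1.94 percentage points of HepG2, and PDE3A by 1.57. The median SE of those 160 genes was 0.81 in H12 and 0.12 in H33. The H12 libraries behind these remainders could not be viewed singly, and the part of 1 library in them was not tested.

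The PDE4 genes encode cAMP-specific enzymes, and the 4 genes did not move together. PDE4B (ENSG00000184588, chromosome 1 from 65792514 to 66374579), a form induced by inflammatory signals in leukocytes, was almost without reads in HepG2, with 0.0131 CPM and 0.0134 CPM implied by the 2 tables. Only 78 of the 14888 genes in the H33 table had a lower HepG2 level. Its level was 7.34 CPM in H33 and 2.60 CPM in H12, so both clones lay far above HepG2 and H33 lay above H12. The authors' deposited tables gave PDE4B log2 fold changes of 9.13 (SE 0.33, adjusted p = 4.36e-164) in H33 and 7.60 (SE 0.37, adjusted p = 1.68e-93) in H12, ranks 30 and 170 among all rises. With so little in HepG2 these ratios depend on the prior count of the fit. When every level below 0.1 CPM was raised to 0.1 CPM, the changes were 6.20 and 4.70.

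PDE4D (ENSG00000113448, chromosome 5 from 58969038 to 60522120), which has many long and short isoforms and is held near receptors and channels by scaffold proteins, went from 5.41 CPM and 5.39 CPM in HepG2 to 69.5 CPM in H33 and 57.7 CPM in H12. The fold was 12.8 in H33 and 10.7 in H12. PDE4D had log2 fold changes of 3.68 (SE 0.07) and 3.42 (SE 0.08) in the authors' deposited tables, with the adjusted p listed as 0 in both. Unlike PDE4B, PDE4D had a level well above the lowest fitted values in HepG2. Its exons overlap those of PART1 on the opposite strand over 227 bases, and PART1 stood at -9.34 in H33 and -5.25 in H12 in the authors' deposited tables.

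PDE4A and PDE4C were lower in the clones, by very different amounts. PDE4C (ENSG00000105650, chromosome 19 from 18208652 to 18248200) went from 3.57 CPM and 3.60 CPM in HepG2 to 0.582 CPM in H33 and 0.520 CPM in H12, with log2 fold changes of -2.62 (SE 0.18, adjusted p = 4.37e-49) and -2.79 (SE 0.16, adjusted p = 8.89e-65) in the authors' deposited tables. PDE4A (ENSG00000065989, chromosome 19 from 10416773 to 10469631) changed least of the 9 genes. Its HepG2 level was 9.98 CPM and 10.1 CPM by the 2 tables, and it stood at 8.54 CPM in H33 and 6.56 CPM in H12. The log2 fold change of PDE4A was -0.22 (SE 0.07, adjusted p = 0.00275) in H33 and -0.62 (SE 0.08, adjusted p = 6.45e-13) in H12 in the authors' deposited tables. With a Bonferroni adjustment over all listed genes the H33 call of PDE4A was lost.

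PDE7A and PDE8A encode enzymes with high affinity for cAMP, and they moved in opposite directions by modest amounts. PDE8A (ENSG00000073417, chromosome 15 from 84980440 to 85139145), which is insensitive to the general inhibitor IBMX, rose from 46.1 CPM and 46.2 CPM in HepG2 to 121.5 CPM in H33 and 123 CPM in H12. That is 264% and 267% of the HepG2 level. The authors' deposited tables held log2 fold changes of 1.40 (SE 0.05, adjusted p = 4.39e-195) and 1.41 (SE 0.06, adjusted p = 1.85e-113) for PDE8A. PDE7A (ENSG00000205268, chromosome 8 from 65717510 to 65842322), which is expressed in T cells among others, fell from 19.2 CPM and 19.4 CPM to 11.0 CPM in H33 and 11.8 CPM in H12, or 57.0% and 60.9% of HepG2. Its log2 fold changes were -0.81 (SE 0.07, adjusted p = 1.55e-34) and -0.72 (SE 0.06, adjusted p = 1.46e-32) in the authors' deposited tables.

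PDE10A (ENSG00000112541, chromosome 6 from 165327287 to 165988078), an enzyme for both cyclic nucleotides best known from striatal neurons, was scarce in HepG2 and abundant in the clones. It stood at 0.609 CPM and 0.607 CPM in HepG2 and reached 106 CPM in H33 and 99.1 CPM in H12, a fold of 174 and 163. The log2 fold changes of PDE10A were 7.44 (SE 0.09) and 7.35 (SE 0.10) in the authors' deposited tables, with the adjusted p listed as 0 and rank 216 among the rises in each. The HepG2 level of PDE10A is above 0.1 CPM, so its fold does not rest on the lowest fitted values.

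**Figure D2:**
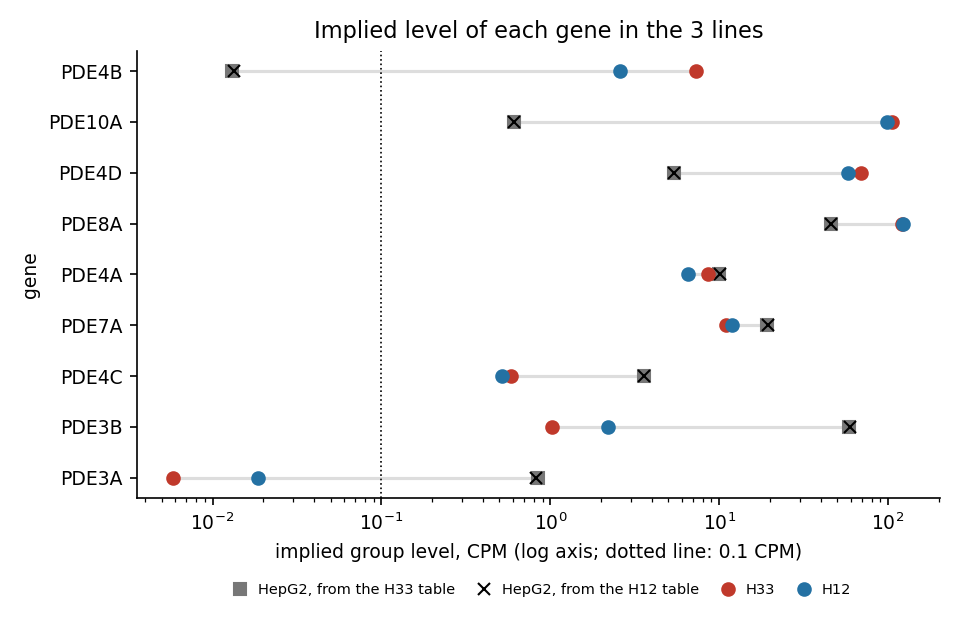
Implied level of each gene in CPM on a log axis, for HepG2 (grey squares from the H33 table, crosses from the H12 table), H33 (red) and H12 (blue). The 2 HepG2 values of a gene differ by at most 0.04 log2 units, and the clones lie close to each other except for PDE4B, PDE3B and PDE3A.

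Levels of different genes were compared per length, as CPM per kilobase (kb) of the median protein-coding transcript of each gene in GENCODE 29. In HepG2, PDE3B and PDE8A were the most abundant, with 12.2 and 12.1 CPM per kb, followed by PDE7A with 7.15 and PDE4A with 3.88. In H33 the order was PDE8A (31.9 CPM per kb), PDE4D (27.4) and PDE10A (19.0). In H12 it was also PDE8A (32.3 CPM per kb), PDE4D (22.7) and PDE10A (17.8). PDE3B supplied 31.2% of the summed level per kb of the 9 genes in HepG2, against 0.231% in H33 and 0.551% in H12. PDE10A supplied 0.279% in HepG2, against 20.7% and 21.6% in the clones. The summed level of the 9 genes was 39.1 CPM per kb in HepG2, 91.6 in H33 and 82.3 in H12. Transcript level is not enzyme activity, and these shares rest on the length that divides them. With the length of all exons together, PDE8A led in HepG2 as well (5.85 CPM per kb against 5.07 for PDE3B). By that measure PDE8A took 54.5% in H33 and 58.2% in H12, PDE10A came before PDE4D in both clones, and the PDE4D share was 15.1% and 13.2%, against 29.9% and 27.6% with the transcript length.

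**Figure D3:**
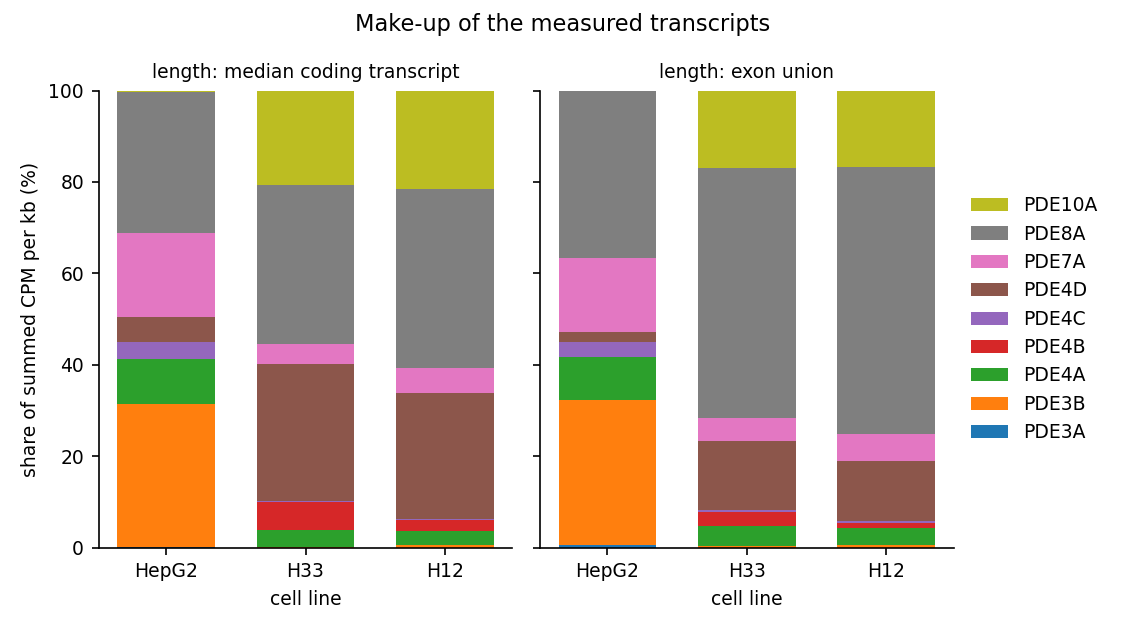
Share of each gene in the summed CPM per kb of the 9 genes in HepG2, H33 and H12, with the level divided by the median coding transcript length (left) or by the length of all exons together (right). PDE3B and PDE8A hold the largest shares in the HepG2 bars, and PDE3B is hardly visible in the clones, where PDE8A, PDE4D and PDE10A make up most of each bar.

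The 2 clones were compared by the difference of their fold changes over the root of the summed squared SEs, with p-values adjusted over 14765 genes. Sharing the HepG2 libraries makes these summed SEs too wide rather than too narrow, so a difference that did not pass may still exist. For PDE4B and PDE3A the derived SE is not a sampling error, because their level in HepG2 or in a clone is near the lowest fitted values. The intervals and p-values of these genes below carry that limit. PDE4B was higher in H33 by 1.54 log2 units (95% interval 0.56 to 2.51, adjusted p = 0.0393), and PDE4A by 0.39 (0.17 to 0.61, adjusted p = 0.0125). These 2 of 9 genes stand beside 5.40% of all genes called in that comparison. Neither PDE4A nor PDE4B was called when a t distribution with 10 degrees of freedom replaced the normal one (adjusted p = 0.149 for PDE4A and 0.225 for PDE4B). With a correlation of 0.5 assumed for the shared HepG2 libraries, 5 genes were called, the added ones being PDE3A, PDE3B and PDE4D. For PDE3A the difference was -1.70 (interval -3.17 to -0.24, adjusted p = 0.249), for PDE3B -1.08 (-1.89 to -0.26, adjusted p = 0.131) and for PDE4D 0.26 (0.05 to 0.47, adjusted p = 0.176). The narrowest intervals were those of PDE8A, at -0.02 (-0.17 to 0.14), and PDE7A, at -0.10 (-0.27 to 0.08). PDE10A differed by 0.09 (-0.17 to 0.35) and PDE4C by 0.17 (-0.30 to 0.65). None of these 4 passed the test, which does not show equal levels.

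**Figure D4:**
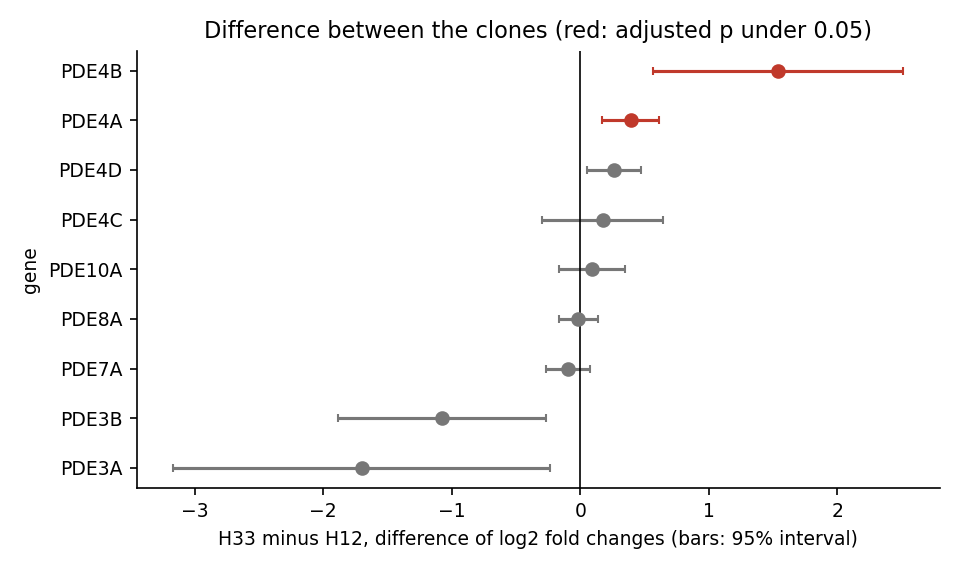
Difference of the log2 fold changes, H33 minus H12, for the 9 genes with its 95% interval. Red points (PDE4A and PDE4B) passed an adjusted p of 0.05 over all genes, and the intervals of PDE3A, PDE4B and PDE3B are the widest. The derived SE behind the intervals of PDE4B and PDE3A is not a sampling error.

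The start regions of these genes were read for the letters of the cAMP response element, the site that CREB binds. RefSeq windows on GRCh38.p14 run from 250 bases before to 50 after an annotated start, and 30 windows of 8 of the genes were read, PDE7B included; PDE3B and PDE7A are named only. The full element TGACGTCA, which reads the same on both strands, was in 1.85% of all 35116 windows in the table. A short element, TGACG or its reverse complement CGTCA, was in 24.6% of them, and each full element holds both overlapping. Among the gene windows the full element was in 2 and a short element in 4. The full element was in 1 of 5 windows of PDE4A, the measured gene that changed least, and in the single window of PDE7B. A short element without the full one was in 1 of 8 windows of PDE4D and in 1 of 4 of PDE4C. The 6 windows of PDE4B, the 2 of PDE10A, the 3 of PDE8A and the 1 of PDE3A held neither. The PDE3A window, on chromosome 12 from 20571829 to 20572128, lies inside the gene, which begins at 20369245. The region at that gene start was not read, so whether it holds an element is unknown. Both PDE10A windows also lie inside their gene, which begins at 165988078 on the minus strand, and that start was not read either. Which of the annotated starts the cells use was not measured, and a match is a description of letters, not a binding site.

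Windows are printed below for PDE4A and PDE4D, which hold matches, and for PDE4B and PDE10A, the genes with the largest rises, 5′ to 3′ on the strand of the gene with short and full elements in capitals. They lie at chr19:10416523-10416822 on the plus strand (PDE4A), chr5:59587576-59587875 on the minus strand (PDE4D), chr1:65792260-65792559 on the plus strand (PDE4B) and chr6:165663192-165663491 on the minus strand (PDE10A).
PDE4A window: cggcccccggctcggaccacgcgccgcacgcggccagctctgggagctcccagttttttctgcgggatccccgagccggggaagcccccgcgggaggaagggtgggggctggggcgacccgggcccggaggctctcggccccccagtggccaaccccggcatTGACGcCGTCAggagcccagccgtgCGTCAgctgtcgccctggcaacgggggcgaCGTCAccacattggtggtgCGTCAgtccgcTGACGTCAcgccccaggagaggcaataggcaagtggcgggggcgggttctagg
PDE4D window: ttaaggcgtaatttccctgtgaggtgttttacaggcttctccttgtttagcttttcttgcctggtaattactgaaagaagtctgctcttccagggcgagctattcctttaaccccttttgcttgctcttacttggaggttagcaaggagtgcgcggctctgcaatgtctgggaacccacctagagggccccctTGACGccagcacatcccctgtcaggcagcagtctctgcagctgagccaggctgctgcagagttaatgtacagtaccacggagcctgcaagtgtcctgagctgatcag
PDE4B window: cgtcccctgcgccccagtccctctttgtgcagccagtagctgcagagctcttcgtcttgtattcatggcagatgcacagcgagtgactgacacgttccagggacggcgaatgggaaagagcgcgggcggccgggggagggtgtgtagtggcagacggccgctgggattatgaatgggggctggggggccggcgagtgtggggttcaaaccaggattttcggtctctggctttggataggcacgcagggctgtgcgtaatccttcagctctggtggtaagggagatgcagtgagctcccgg
PDE10A window: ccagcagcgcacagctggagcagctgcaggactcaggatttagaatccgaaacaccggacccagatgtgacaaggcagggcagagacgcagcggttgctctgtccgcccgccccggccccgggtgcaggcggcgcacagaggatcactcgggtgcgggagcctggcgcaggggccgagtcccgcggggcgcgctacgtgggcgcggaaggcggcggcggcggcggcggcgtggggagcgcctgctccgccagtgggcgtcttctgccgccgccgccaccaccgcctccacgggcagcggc
The PDE4A window holds the full element from 3 bases before the annotated start and 7 short elements in all, while the PDE4D window holds 1 short element. GENCODE 29 lists 16 coding transcripts of PDE4D with 15 different starts and 10 of PDE4B with 10 starts, against 1 of PDE3A, so a gene-level value sums over many promoters for PDE4D and PDE4B.

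The other genes of cAMP breakdown were few. Of 6 more phosphodiesterases that act on cAMP, 3 were listed, and each was called in both clones, 2 higher and 1 lower. PDE8B, the close relative of PDE8A, stood at 5.01 (SE 0.23) in H33 and 5.19 (SE 0.23) in H12 on the log2 scale in the authors' deposited tables, from 0.108 CPM in HepG2 to 3.48 CPM and 3.88 CPM. PDE2A, which cGMP stimulates, rose from 0.234 CPM to 1.07 CPM in H33 and from 0.241 CPM to 0.834 CPM in H12. PDE11A fell from 5.11 CPM to 0.0362 CPM in H33, and from 5.25 CPM to 0.0984 CPM in H12. Of 8 cGMP-selective phosphodiesterase genes 4 were listed. PDE5A, the sildenafil target, rose by 3.77 (SE 0.16) and 3.81 (SE 0.16) log2 units in the authors' deposited tables, while the rod photoreceptor subunit gene PDE6G stood at -4.21 (SE 0.33) and -4.60 (SE 0.34). PDE6D, a prenyl-binding protein, rose by 0.58 and 0.57, and PDE9A was not called in H33 (0.05) and was called higher in H12 (0.16) in the authors' deposited tables.

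On the supply side, 8 of 12 genes for adenylyl cyclases and stimulatory G protein were listed, with 5 called higher and 2 lower in each clone (median log2 fold change 1.77 in H33 and 1.60 in H12). The list counts in this paragraph stand beside 44.2% of all listed genes called higher and 45.3% lower in H33. In H12 these shares were 41.8% and 44.3%. The medians stand beside -0.02 in H33 and -0.03 in H12 over all listed genes. ADCY3 had log2 fold changes of 6.90 and 6.67 and ADCY7 of 3.55 and 3.47 in the authors' deposited tables. ADCY1 went from 3.21 CPM in HepG2 to 0.00508 CPM in H33 and 0.0578 CPM in H12. The H33 level of ADCY1 is near the lowest fitted for any gene in that clone (0.00493 CPM), so its ratios depend on the prior count. Its H12 level, 1.79% of HepG2, is in the range of the remainders described above. Among 14 of 19 listed effector and export genes, H33 had 6 higher and 6 lower, H12 had 7 and 5, with medians of 0.15 and 0.38. The regulatory subunit gene PRKAR2B rose by 8.48 and 8.47 and the kinase gene PRKX by 6.35 and 6.33, whereas the PKA inhibitor gene PKIB stood at -3.83 and -4.45 log2 units in the authors' deposited tables.

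Proteins that hold or modify phosphodiesterases moved less. Of 19 listed scaffold and partner genes (21 in the list), H33 had 6 higher and 10 lower, H12 had 5 and 11, with a median of -0.32 and -0.26 on the log2 scale. The counts of this and the next 2 lists stand beside 44.2% of all listed genes called higher and 45.3% lower in H33. In H12 these shares were 41.8% and 44.3%. The list medians stand beside -0.02 in H33 and -0.03 in H12 over all listed genes. DISC1, a PDE4 partner, stood at -2.31 (SE 0.11) and -2.33 (SE 0.12) in the authors' deposited tables, and PDE4DIP, a PDE4D-binding scaffold, at -1.20 and -1.16. The anchoring protein gene AKAP12 stood at -4.64 and -4.48 in the authors' deposited tables, while the caveolin gene CAV1, whose protein forms the membrane pits where PDE3B resides in fat cells, rose by 3.41 and 3.49. Of 19 listed kinase and phosphatase genes (20 in the list), H33 had 11 higher and 6 lower, H12 had 10 and 6, with medians of 0.23 and 0.26. They include the insulin pathway that acts on PDE3B: the receptor gene INSR stood at -2.75 (SE 0.05) and -2.70 (SE 0.11), whereas the adaptor gene IRS1 rose by 1.73 and 1.75 log2 units in the authors' deposited tables. Of 24 listed CREB factors and cAMP-responsive transcripts (26 in the list), H33 had 12 higher and 11 lower, H12 had 10 and 8, with medians of 0.03 and -0.04. The 4 largest changes in H33 were falls of the liver genes G6PC1, PPARGC1A, TAT and PCK1, between -11.63 and -7.37 in the authors' deposited table. In H12 these 4 genes stood between -6.21 and -5.51 in the authors' deposited table, and CREB3L3 stood at -5.79.

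**Figure D5:**
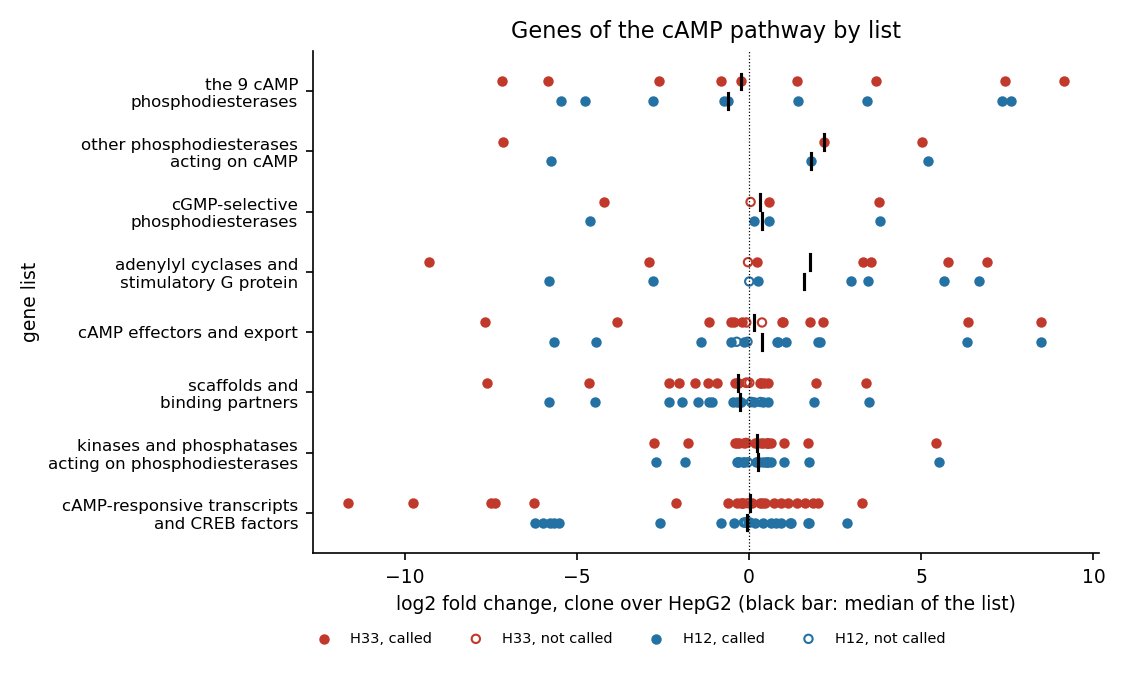
Log2 fold change over HepG2 of every listed gene of 8 lists of the cAMP pathway, in H33 (red) and H12 (blue). Filled points are called at an adjusted p under 0.05, open points are not, and black bars are list medians. The cAMP phosphodiesterases spread over both sides of 0, while most kinase, phosphatase and scaffold genes lie within 3 log2 units of 0.

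The genes with the most similar levels were sought by Euclidean distance between implied log2 CPM over the 3 lines. For PDE10A these were MARVELD1 (distance 0.09 log2 units), HTATIP2 (0.19) and SNX19 (0.23). For PDE4B they were DACH1 (0.37), ADAMTSL1 (0.76) and ROR1-AS1 (0.89). So few points per gene make this a description of levels alone.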

How the data were processed

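RNA was measured in 18 libraries, grouped by their title and line labels. Per the submitters' processing notes, bcl2fastq 2.20.0.422, STAR 2.5.3a, RSEM and edgeR 3.28.0 were used with GRCh38.p10; filters, scaling and dispersion settings: not given in the sources used here. Per the file headers, the authors deposited for each gene a log2 fold change, a mean log2 CPM, a likelihood ratio score, a p-value and an adjusted p-value. These were used as deposited across all genes, in place of a count test. The SE is the absolute fold change over the root of the likelihood ratio. It is not a sampling error where a group has almost no reads. Group levels and the H33 minus H12 test (normal, two-sided, Benjamini-Hochberg over 14765 genes) were computed from these values, and that test was tested on simulated data. The simulation drew independent normal errors from the same SEs. It therefore cannot show whether those SEs hold, nor what the shared HepG2 libraries do to the test. For 12737 genes above 1 CPM, the HepG2 level of one table less that of the other had an SD of 0.00981 (log2). The genes and lists were chosen with earlier results of these data known. All 15019 identifiers were found in GENCODE 29 (GRCh38), which gave coordinates and lengths; window sequences are from RefSeq. Exons overlap those of other listed genes on the opposite strand in PDE4D (PART1, 227 bases) and PDE7A (MTFR1, 116 bases), and use of strand is not given in the sources used here. Genes were named by a rule: all listed members, PRKACA and DNAJB1, up to 4 called genes with the largest change per list, and the 3 nearest patterns of 2 members. PDE4DIP, CREB3L3, COL1A2, PDGFRB, LYZ, CD68, SCG2, PTPRC, ADCY9 and GNAS were named after their values were seen. The lists name 27 genes by the rule and not all are printed. Computation used Python 3.11.15 with pandas 2.3.3, numpy 2.4.6 and scipy 1.17.1, and plots used matplotlib 3.10.9.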

Additional observations from a re-analysis of the deposited data

Results flagged for a closer look

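PDE4A and PDE4B were marked because their change from HepG2 differed between the clones in a test of the difference itself. PDE4B stood 1.54 log2 units higher in H33 than in H12, with levels of 7.34 CPM and 2.60 CPM against 0.0132 CPM in HepG2. PDE4A stood 0.39 log2 units higher in H33, with 8.54 CPM and 6.56 CPM against 10.0 CPM in HepG2. The derived SE of PDE4B, near the lowest fitted levels in HepG2, is not a sampling error.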

How the results depend on the processing

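All 9 genes kept their direction and their call in both clones at an adjusted p of 0.01 and with fold changes centred on the median of all genes. With Bonferroni adjustment 8 were called in H33 and 9 in H12. Among genes with a mean of at least 0 log2 CPM, PDE3A dropped below the limit and 8 were called in each clone; at 1 log2 CPM there were 8 and 7, PDE4B being below it in H12. The difference between the clones depended on the setting: 2 genes were called as reported, 0 at an adjusted p of 0.01, 0 with a t distribution, 5 with a correlation of 0.5 for shared controls, and 2 each with centring and with a filter at 0 log2 CPM. The lower call counts follow from the stricter limit or the wider tails, and the higher one from the smaller SE. When every level below 0.1 CPM was raised to 0.1 CPM, PDE3A stood at -3.08 in H33 and -3.04 in H12. Dividing by all exons moved 11 of 27 shares per length by over 1.5 times; this setting was chosen after seeing the data. No paired analysis was possible because the tables hold no values per library, and for the same reason leaving out replicates, other scalings, other tools and other count filters were not run. Depth is unknown.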

Other observations

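The nearest listed protein-coding gene on each side of the 9 measured phosphodiesterase genes, 18 neighbours in all, had a median log2 fold change of 0.13 in H33 and 0.08 in H12. Of these, 7 were called in the same direction as the phosphodiesterase beside them in each clone. That count is near the share over all listed genes, of which 44.2% were called higher and 45.3% lower in H33. In H12 these shares were 41.8% and 44.3%. Around PDE3B, which fell, the proteasome gene PSMA1 lies 88 bases away and stood at 0.29 (SE 0.03) in H33 and 0.27 (SE 0.13, not called) in H12 in the authors' deposited tables, and CYP2R1, a vitamin D hydroxylase 5396 bases beyond its other end, rose by 3.70 (SE 0.14) and 3.86 (SE 0.12). Neither neighbour of PDE3B was called lower.

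Beside PDE10A, which rose, QKI and SFT2D1 stood at -0.50 and -0.70 in H33 and at -0.50 and -0.66 in H12 in the authors' deposited tables. Beside PDE4D, PLK2, a polo-like kinase, had log2 fold changes of 5.84 and 5.85 in the authors' deposited tables, and DEPDC1B of -0.19 and -0.11 (not called in H12). Beside PDE3A, which fell, the hepatic uptake transporter gene SLCO1B3 rose by 6.12 (SE 0.15) and 6.02 (SE 0.15) in the authors' deposited tables. These neighbours were named after their values were seen.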
